A study of Mus musculus with 12 samples.

Results

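The genes described here are 10 interferon-induced GTPase genes of the mouse: the immunity-related GTPase (IRG) genes Irgm1, Irgm2, Igtp and Iigp1, and the guanylate-binding protein (GBP) genes Gbp2, Gbp3, Gbp4, Gbp5, Gbp6 and Gbp7. They were chosen by name, with earlier results of these data known, from the 53715 genes of a table of RNA-seq read counts. The lists set beside them were chosen in the same way, so counts given beside shares over all genes are descriptions, not tests. The table covers whole spleen, with 12 libraries in 3 groups of 4. One group was 10 weeks old, a symptomatic age, and had free access to drinking water with 2-deoxyglucose (2DG), a glucose analogue that inhibits glycolysis, at 6 g/L. The other groups were untreated, at 10 weeks and, before symptoms, at 6 weeks. All 12 libraries, controls included, came from BXSB mice with the Yaa mutation, a lupus-prone background, that also carried the targeted alleles Cd8atm1Mak and Il15tm1Imx (Yaa DKO). The labels name separate samples and do not say that each was 1 mouse, so p-values cover only the variation among these libraries, part of which may be technical.

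Libraries held 21581820 to 23835453 counts with 2DG, 20692818 to 26079979 counts untreated at 10 weeks and 15596040 to 22480545 counts untreated at 6 weeks. Cd8a still had 582 to 1414 counts per library and Il15 had 82 to 169, and a count over a whole gene does not separate an intact from a disrupted transcript. Untreated 10-week libraries varied most among themselves (common biological coefficient of variation 0.114 with 2DG, 0.241 untreated at 10 weeks and 0.128 at 6 weeks). Replicate 8 was the lowest of that group for all 10 genes, though over all genes the libraries least alike were replicates 6 and 7. Leaving out replicate 8 therefore raises the untreated 10-week mean of each of these genes. Shares over all genes from such fits are no like baseline. Results of the 10 genes and counts of the other lists are given with and without replicate 8 where it changes them. Levels are counts scaled to library size (CPM), and adjusted p-values are from edgeR's quasi-likelihood test with Benjamini-Hochberg adjustment over 18542 genes (called at an adjusted p under 0.05), unless another tool is named.

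IRG and GBP proteins are large GTPases that cells make in response to interferon, above all interferon gamma, with IRF1 among the transcription factors that act on their genes. They gather on the membranes of vacuoles that hold intracellular microbes such as Toxoplasma gondii and break them open. Irgm1, Irgm2 and Igtp (also called Irgm3) are the regulators of the IRG system: they sit on the cell's own membranes and keep effector IRG proteins such as Iigp1 (Irga6) inactive there. In mice the GBP genes lie in 1 cluster on chromosome 3 and 1 on chromosome 5. Here Gbp2, Gbp3, Gbp5 and Gbp7 belong to the chromosome 3 cluster and Gbp4 and Gbp6 to that on chromosome 5.

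Sequence before the start sites was taken from RefSeq windows on GRCm38.p6, each from 250 bases before to 50 bases after an annotated start, and 7 of the 10 genes have such a window (8 windows, since Gbp3 has 2). Gbp4, Gbp6 and Iigp1 are named only. These are reference letters, not the BXSB sequence. They were searched on both strands for an ISRE-type motif, GAAANNGAAA, of the kind bound by IRF factors, and a GAS-type motif, TTCNNNGAA, the gamma-activated site. An ISRE-type match was present in a window of all 7 genes, against 3.44% of 32851 RefSeq windows of the same length. A GAS-type match was present in 4 of the 7 (Gbp5, Gbp7, Igtp and Irgm2), against 8.3% of windows, and these 4 held both motifs, against 0.454% of windows. A match is a description of letters and was not shown to be bound here.

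Stretches of 30 bases around the ISRE-type match are shown for 5 genes, 5′ to 3′ on the strand of the gene, because this match is what their windows share. Capitals mark the match, which in the chromosome 3 genes lies on the opposite strand. In Gbp3 and Irgm1 the capitals cover 2 overlapping matches. Of these bases, 22 in Gbp2 and all 30 in Irgm1 fall in an exon of the GENCODE annotation.
Gbp5, chr3:142496759-142496788, plus strand: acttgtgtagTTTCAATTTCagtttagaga
Gbp7, chr3:142530273-142530302, plus strand: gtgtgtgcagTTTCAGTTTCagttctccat
Gbp3, chr3:142559992-142560021, plus strand: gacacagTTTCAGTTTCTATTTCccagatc
Gbp2, chr3:142620594-142620623, plus strand: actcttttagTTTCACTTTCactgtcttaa
Irgm1, chr11:48871428-48871457, minus strand: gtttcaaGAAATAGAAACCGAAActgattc

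Igtp and Irgm2 are shown at 250 bases before their RefSeq start sites, because these stretches are nearly alike and their genes were called differently with 2DG. Capitals mark a GAS-type match followed after 2 bases by an ISRE-type match, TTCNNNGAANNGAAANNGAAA, a pair defined after the sequences were seen. The windows aligned over 214 bases of which 197 were identical (92.1%).
Igtp, chr11:58199306-58199555, plus strand: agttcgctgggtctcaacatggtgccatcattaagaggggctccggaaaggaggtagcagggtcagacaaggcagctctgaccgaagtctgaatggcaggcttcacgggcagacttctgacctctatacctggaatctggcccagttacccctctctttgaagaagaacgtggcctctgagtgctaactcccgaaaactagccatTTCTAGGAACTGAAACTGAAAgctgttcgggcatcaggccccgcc
Irgm2, chr11:58214727-58214976, plus strand: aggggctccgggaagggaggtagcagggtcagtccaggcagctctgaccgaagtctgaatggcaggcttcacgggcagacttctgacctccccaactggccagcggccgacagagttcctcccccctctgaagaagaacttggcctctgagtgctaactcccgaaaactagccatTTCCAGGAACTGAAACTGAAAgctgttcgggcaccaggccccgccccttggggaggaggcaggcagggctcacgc
This pair was present in 5 of 32851 windows (0.0152%). All 5 belong to IRG genes: Igtp, Irgm2, Tgtp1, Tgtp2 and Gm12185. In Tgtp1, an IRG gene of a second cluster on chromosome 11, it reads as follows.
Tgtp1, chr11:48992309-48992338, minus strand: ccatTTCCAGGAATCGAAACTGAAAcctac

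**Figure D1:**
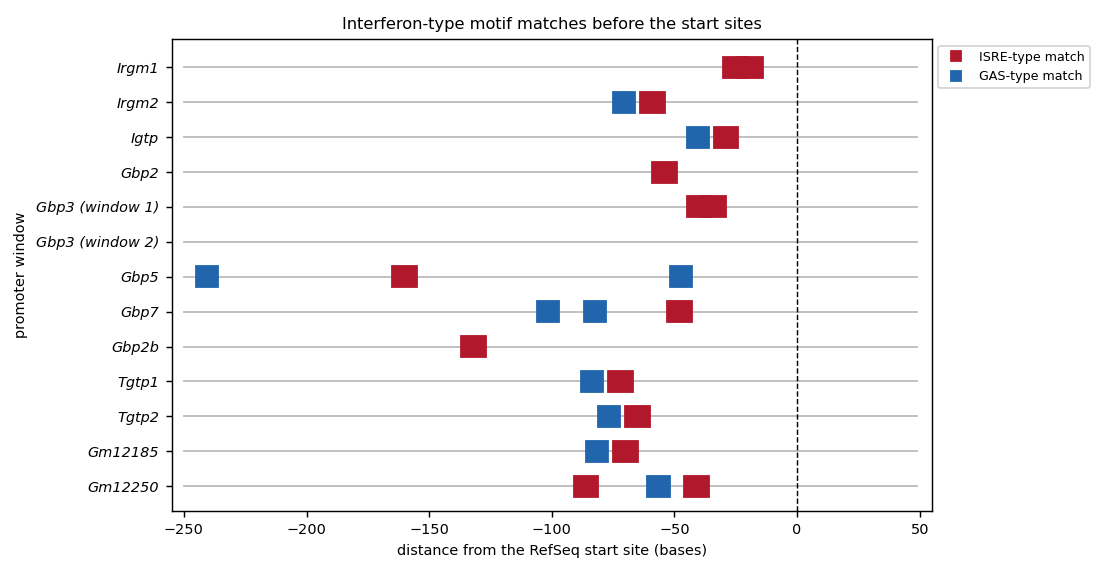
Positions of ISRE-type (red) and GAS-type (blue) matches in the RefSeq windows of the GTPase genes with a window and of 5 further family genes, by distance in bases from the start site (dashed line). Matches lie before the start site in every window drawn that holds one; the second window of Gbp3 holds none.

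The first comparison asked how 2DG changed these genes in symptomatic spleens. With 2DG, 9 of the 10 genes fell, the GBP genes 6 of 6 and the IRG genes 3 of 4, and none rose. Irgm2 was the exception. Over all genes tested 7.42% were called in this comparison, 5.26% lower and 2.16% higher. The median log2 fold change of the 10 genes was -1.15, against 0.01 over all genes tested, and single genes ran from -2.41 for Iigp1 to -0.31 for Irgm2. For the same 9 genes the 4 libraries with 2DG all lay below the 4 untreated ones, which 7.91% of all genes tested did. Without untreated replicate 8 the count of calls was again 9 (11.8% of all genes called), and all 10 genes lay below without overlap (11.8% of all genes). These shares are no like baseline, since replicate 8 was the lowest of its group for all 10 genes. Together the 10 genes took 0.0600 ± 0.00398% of all counts with 2DG and 0.124 ± 0.0344% in untreated spleens at 10 weeks (mean ± SD, n = 4 libraries each), beside 0.0763 ± 0.0160% at 6 weeks. In RNA of whole spleen, fewer cells of a type and less RNA per cell cannot be told apart.

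**Figure D2:**
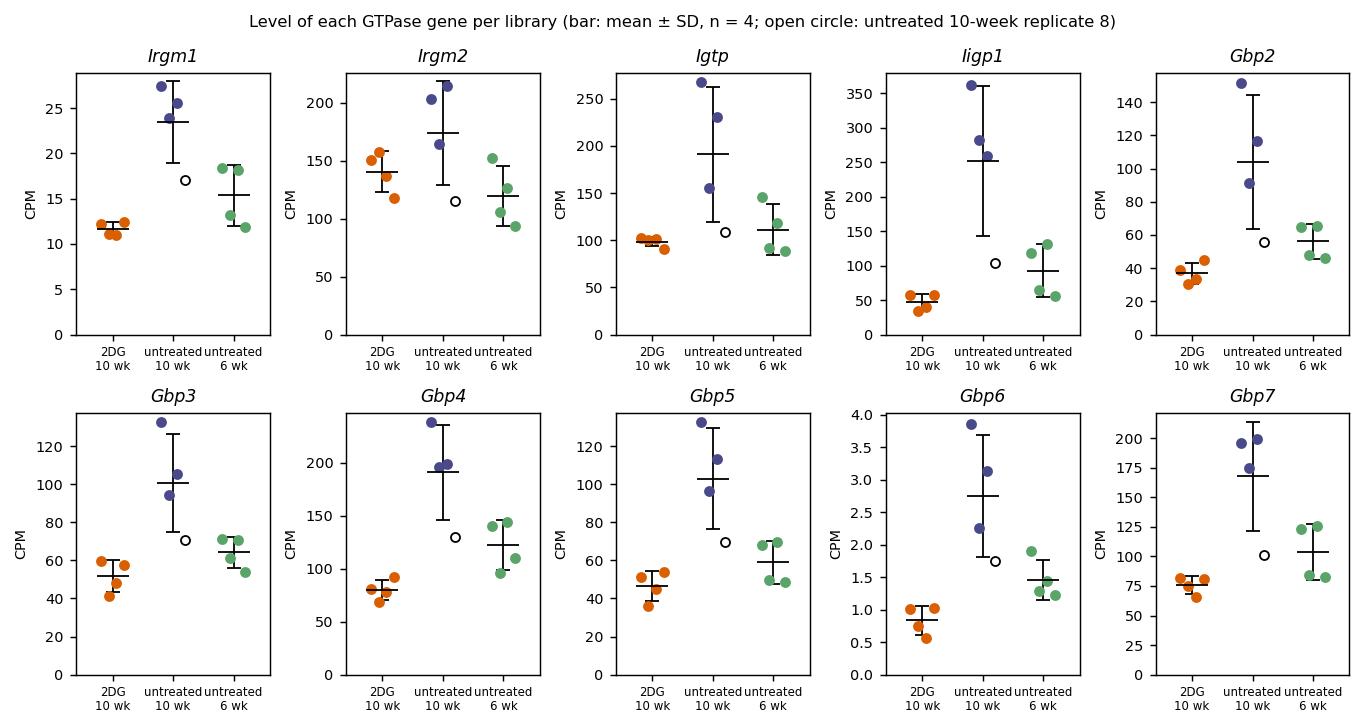
CPM of each of the 10 genes in every library, by group (2DG at 10 weeks, untreated at 10 weeks, untreated at 6 weeks), with the mean and SD of 4 libraries; each panel has its own scale from 0. The open circle is untreated 10-week replicate 8, the lowest of its group for all 10 genes.

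Irgm1 (ENSMUSG00000046879.7, chr11:48861968-48871683, minus strand, GRCm38), the regulator found on the Golgi and on lysosomes, stood at 12.2, 11.0, 11.0 and 12.4 CPM in the 2DG libraries (replicates 9 to 12). In the untreated 10-week libraries (replicates 5 to 8) it stood at 27.4, 23.9, 25.6 and 17.0 CPM. The libraries with 2DG were nearly level and all lay below the untreated ones. Irgm1 fell by 1.01 on the log2 scale (SE 0.16, adjusted p = 0.00403), which is 2.01-fold lower.

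Igtp (ENSMUSG00000078853.8, chr11:58199556-58207591, plus strand), a regulator of the endoplasmic reticulum membrane, stood at 102, 99.7, 101 and 91.1 CPM with 2DG. The untreated 10-week libraries had 268, 156, 231 and 109 CPM. The groups did not overlap, but untreated replicate 8 lay close above the 2DG libraries while replicate 5 was the highest. Igtp fell by 0.95 on the log2 scale (SE 0.25, adjusted p = 0.0446). This call was the least firm of the 9. When each library was left out in turn, 10 of 12 fits no longer made it, the exceptions being 6-week replicate 1 and untreated 10-week replicate 8, with adjusted p up to 0.120 and log2 fold changes from -1.15 to -0.74.

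Irgm2 (ENSMUSG00000069874.7, chr11:58199618-58222782, plus strand), the other regulator of this family, stood at 151, 158, 137 and 118 CPM with 2DG. The untreated 10-week libraries had 203, 165, 215 and 115 CPM. Replicates 5, 6 and 7 lay above all libraries with 2DG and replicate 8 lay below them, so the groups overlapped. The log2 fold change was -0.31 (SE 0.20, 95% interval -0.74 to 0.12, adjusted p = 0.368), and -0.47 without replicate 8 (adjusted p = 0.0828).

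Igtp and Irgm2 overlap on the same strand and share 162 exon bases, 8.01% of those of Igtp and 4.39% of those of Irgm2, and 11.8% of the 50-base words of Igtp transcripts also occur in Irgm2. The sources used here do not say how reads matching both genes were assigned. The ratio of their counts, chosen after the values were seen and so not tested, was 0.679, 0.633, 0.741 and 0.773 Igtp counts per Irgm2 count with 2DG. In untreated spleens at 10 weeks it was 1.32, 0.946, 1.08 and 0.948, and at 6 weeks 0.957, 0.866, 0.939 and 0.944. The 2DG libraries had the lowest ratios of all 12, below replicate 8 and below every 6-week library.

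Iigp1 (ENSMUSG00000054072.11, chromosome 18), the effector that coats and ruptures the vacuole of Toxoplasma, stood at 57.7, 34.4, 39.8 and 57.1 CPM with 2DG. In untreated spleens at 10 weeks it stood at 363, 282, 259 and 104 CPM. The libraries with 2DG were all lower, and untreated replicate 8 held less than any other library of its group. The log2 fold change was -2.41 (SE 0.41, adjusted p = 0.00864), 5.33-fold lower, the largest of the 10 in size. It ran from -2.68 to -2.18 over the fits without 1 library and stayed past the threshold in all 12.

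Among the further IRG genes 10 of 12 were tested, 5 of them fell and none rose (5.26% and 2.16% of all genes tested). F830016B08Rik, Gm4951, Gm12250, Tgtp1 and Gm12185 were 3.34-fold, 3.36-fold, 2.82-fold, 2.61-fold and 2.46-fold lower with 2DG (adjusted p = 0.00418, 0.0158, 0.0101, 0.0217 and 0.0449). F830016B08Rik and Gm4951 lie on chromosome 18 with Iigp1, and all the 2DG libraries of these 5 genes lay below the untreated ones. The calls of Tgtp1 and Gm4951 were lost without 2DG replicate 10 or 11, that of Tgtp1 also without 2DG replicate 9 or untreated replicate 5, and that of Gm12185 in 9 of the 12 fits without 1 library. That of Gm4951 was also lost in a fit of the compared groups alone (adjusted p = 0.0533), and that of Gm12185 with voom (adjusted p = 0.0717). Of the transcript words of Tgtp1, 81.2% also occur in other genes, mostly in Tgtp2, so its count is uncertain, and Tgtp2 and Ifi47 had at most 1 count in any library. The others did not pass. Irgc1, a testis gene of the family, stood at 2.02 ± 0.431 CPM with 2DG and 1.43 ± 0.405 CPM in untreated spleens at 10 weeks, and Irgq at 42.5 ± 1.81 and 45.1 ± 3.04 CPM in the same order of groups (adjusted p = 0.211 and 0.554). 9930111J21Rik1, 9930111J21Rik2 and Gm5431 had log2 fold changes of 0.03, 0.17 and -0.59 (adjusted p = 0.883, 0.218 and 0.330). Without untreated replicate 8, 9930111J21Rik2 was called higher with 2DG (log2 fold change 0.25, adjusted p = 0.0323), and without both replicates 6 and 8 Irgc1 was (log2 fold change 0.84, adjusted p = 0.0489).

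**Figure D3:**
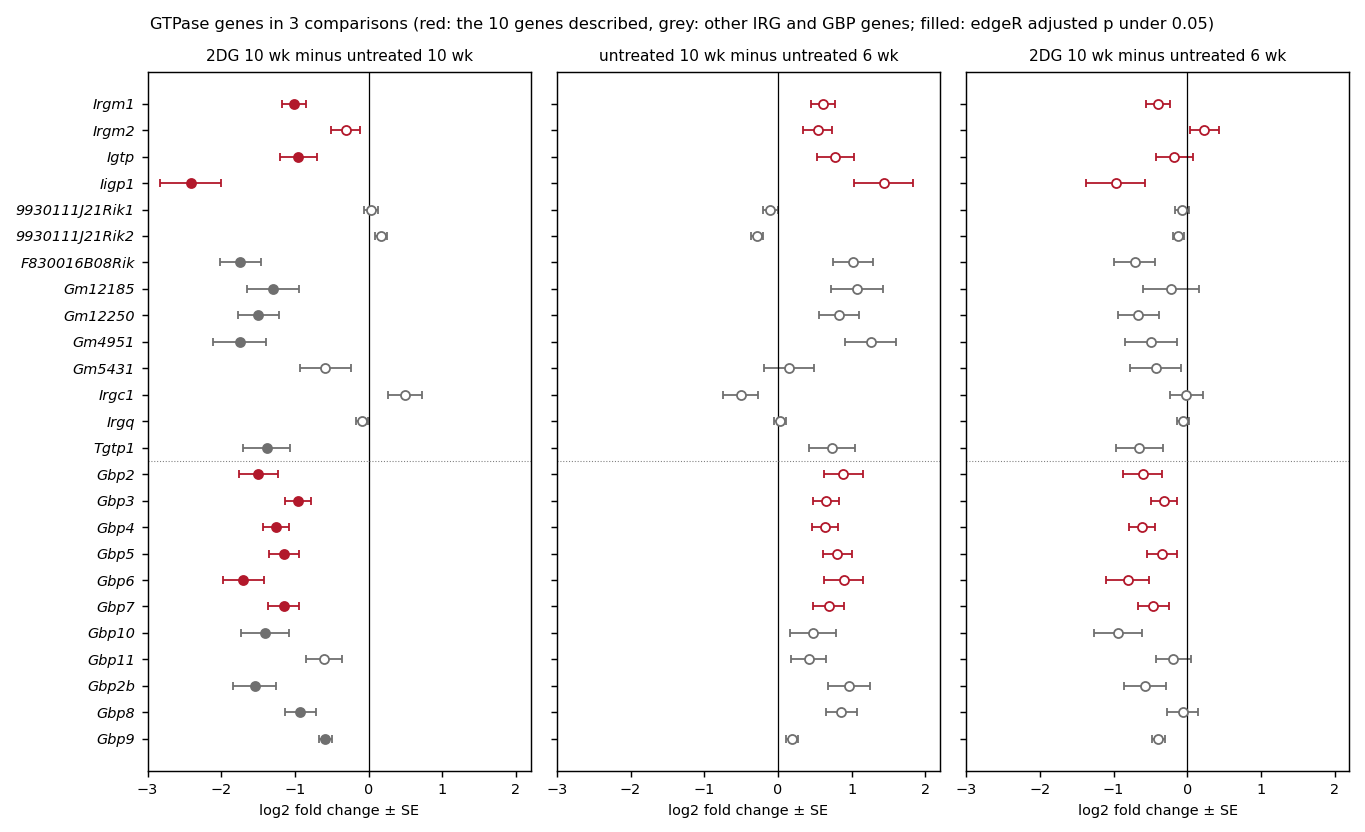
Log2 fold change with its SE for the 10 genes (red) and the other tested IRG and GBP genes (grey) in the 3 comparisons; filled points have an edgeR adjusted p under 0.05. In the first panel 9 of the 10 red points are filled and all lie left of 0, and in the other panels no point is filled.

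In the chromosome 3 cluster all 4 of the genes described fell. Gbp2 (ENSMUSG00000028270.12, chr3:142620602-142638008, plus strand), a protein recruited to microbial vacuoles, stood at 38.7, 30.6, 33.2 and 44.8 CPM with 2DG. The untreated 10-week libraries had 151, 91.3, 117 and 55.9 CPM. All libraries with 2DG lay lower, and the untreated ones spread 2.71-fold between replicates 5 and 8. Gbp2 fell by 1.49 on the log2 scale (SE 0.27, adjusted p = 0.00871), 2.82-fold.

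Gbp5 (ENSMUSG00000105504.4, chr3:142493978-142522344, plus strand), which promotes assembly of the NLRP3 inflammasome, stood at 51.5, 36.2, 45.0 and 53.7 CPM with 2DG, against 133, 96.5, 113 and 69.8 CPM untreated at 10 weeks. The highest library with 2DG lay below the lowest untreated one. The log2 fold change was -1.15 (SE 0.20, adjusted p = 0.00732). Gbp7 (ENSMUSG00000040253.15, chr3:142530342-142550149, plus strand), linked to NADPH oxidase assembly at microbial vacuoles, stood at 81.7, 74.6, 65.6 and 80.6 CPM with 2DG, against 196, 175, 200 and 101 CPM untreated at 10 weeks. Its groups did not overlap either. The log2 fold change was -1.15 (SE 0.21, adjusted p = 0.00982), and 11.3% of its exon bases are shared with the pseudogene Gm43802.

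Gbp3 (ENSMUSG00000028268.14, chr3:142560026-142573209, plus strand) stood at 59.6, 41.4, 48.2 and 57.5 CPM with 2DG, against 133, 94.3, 105 and 70.5 CPM untreated at 10 weeks. It had one of the narrower gaps, since untreated replicate 8 lay not far above the highest library with 2DG. Gbp3 fell by 0.96 on the log2 scale (SE 0.18, adjusted p = 0.00882). The neighbouring Gbp2b, the mouse counterpart of human GBP1, fell as well, at 33.1 ± 5.68 CPM with 2DG and 96.6 ± 41.1 CPM in untreated spleens (log2 fold change -1.55, SE 0.29, adjusted p = 0.0113).

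On chromosome 5, Gbp4 (ENSMUSG00000079363.7, chr5:105115767-105139586, minus strand) stood at 81.0, 68.4, 78.2 and 91.9 CPM with 2DG. The untreated 10-week libraries had 238, 196, 199 and 130 CPM. It had the smallest adjusted p of the 10 genes (log2 fold change -1.26, SE 0.18, adjusted p = 0.00287), and its groups did not overlap. Gbp6 (ENSMUSG00000104713.4, chr5:105270702-105293698, minus strand) was the lowest expressed, with 13 to 24 counts per library with 2DG and 41 to 76 in untreated spleens at 10 weeks. That is 1.01, 0.753, 0.563 and 1.03 CPM with 2DG, against 3.86, 2.25, 3.13 and 1.75 CPM untreated. All libraries with 2DG lay lower, and the log2 fold change was -1.70 (SE 0.28, adjusted p = 0.00403). Of the 50-base words of Gbp6 transcripts 70.7% also occur in other genes, most of them in the overlapping gene model Gm43302, so the level of Gbp6 is uncertain.

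Of the other genes of that cluster Gbp8, Gbp9 and Gbp10 fell, with log2 fold changes of -0.92, -0.59 and -1.41 (adjusted p = 0.0230, 0.00227 and 0.0244). Gbp9 had the narrowest error of these, at 219 ± 18.6 CPM with 2DG and 329 ± 36.6 CPM in untreated spleens at 10 weeks. The calls of Gbp8 and Gbp10 were lost without untreated replicate 5 or without 2DG replicate 10 or 11. They were also lost without a filter on low counts (adjusted p = 0.0674 and 0.0723). Of the transcript words of Gbp10, 84.1% are shared, mostly with Gbp6. Gbp11, annotated as a polymorphic pseudogene, stood at 5.94 ± 0.856 CPM with 2DG and 9.05 ± 2.93 CPM untreated (adjusted p = 0.143), and was called lower when replicate 8 was left out. Over the whole family 18 of 25 tested genes fell with 2DG and none rose with all libraries: 10 of 11 GBP genes and 8 of 14 IRG genes. Over all genes tested 5.26% were called lower and 2.16% higher. The calls of Igtp, Tgtp1, Gm4951, Gm12185, Gbp8 and Gbp10 were lost in some of the fits without 1 library.

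Levels between genes were compared as CPM per kilobase of annotated exon. Igtp led in every group, at 48.8 ± 2.53 with 2DG, 94.4 ± 35.4 in untreated spleens at 10 weeks and 55.1 ± 13.3 at 6 weeks. Irgm2 was second in each, at 38.1 ± 4.76, 47.3 ± 12.2 and 32.4 ± 7.00 in the same order of groups. With 2DG the order went on with Gbp3 (15.8 ± 2.58), Gbp2 (14.6 ± 2.51) and Gbp7 (13.5 ± 1.32), whose mean ± SD intervals overlapped between neighbours, and then Gbp4 (10.7 ± 1.29), Iigp1 (8.12 ± 2.05) and Gbp5 (7.02 ± 1.19), whose intervals also did. Irgm1 (2.01 ± 0.128) and Gbp6 (0.141 ± 0.0373) came last and apart. In untreated spleens at 10 weeks Iigp1 ranked after these at number 3 per kilobase (43.3 ± 18.6), and from Igtp down to Gbp5 each gene's interval overlapped that of the next. At 6 weeks Iigp1 ranked number 7, as with 2DG, at 15.9 ± 6.51 per kilobase.

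The second comparison set untreated spleens of the symptomatic age against those of the pre-symptomatic age. No member passed: 0 of 10 were called with all libraries, where 0.00539% of all genes tested were (1 of 18542). All 10 had positive log2 fold changes, from 0.54 for Irgm2 to 1.44 for Iigp1 with a median of 0.73, against 0.01 over all genes tested. At an unadjusted p under 0.05 all 10 counted, where 17.1% of all genes tested did, and DESeq2 called 8 of 10, all but Irgm2 and Gbp6 (3.76% of its genes). Without untreated replicate 8 edgeR called all 10 higher, with adjusted p from 0.00887 for Gbp7 to 0.0254 for Irgm2, where 4.57% of all genes tested were called higher and 3.76% lower. Without both replicates 6 and 8 it again called all 10 (12% of all genes).

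The libraries show where this turns. At 6 weeks (replicates 1 to 4) Iigp1 stood at 118, 65.3, 132 and 55.7 CPM, so that untreated 10-week replicate 8, at 104 CPM, lay among them while replicates 5, 6 and 7 lay far above. For Gbp5 the untreated 10-week libraries all lay above 68.0, 49.7, 69.5 and 48.6 CPM at 6 weeks, replicate 8 by the narrowest margin. Gbp5 was the 1 gene of the 10 without overlap, where 3.64% of all genes tested lay wholly above. Without replicate 8 all 10 genes lay wholly above the 6-week libraries (9.22% of all genes). Replicate 8 was the lowest untreated 10-week library for 10 of 10 genes and lay within the 6-week range for 9. Leaving it out could therefore only favour separation of these genes, and the share over all genes is no like baseline. Replicate 8 was also above every library with 2DG for 9, all but Irgm2. Replicate 5 was the highest of the group for 8 genes and replicate 7 for Irgm2 and Gbp7.

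The third comparison set 2DG at 10 weeks against untreated spleens at 6 weeks. None of the 10 genes was called, where 0.129% of all genes tested were, and 5 had an unadjusted p under 0.05 (16.9% of all genes). The log2 fold change was negative for 9 genes, with Iigp1 lowest at -0.97 (SE 0.40, adjusted p = 0.253), and positive for Irgm2 at 0.23 (SE 0.20, 95% interval -0.20 to 0.66, adjusted p = 0.609). For 4 genes, Gbp2, Gbp4, Gbp6 and Gbp7, all libraries with 2DG lay below the 6-week ones, as 7.69% of all genes tested did. Gbp4 came nearest to the threshold, at 79.9 ± 9.65 CPM with 2DG and 123 ± 23.3 CPM at 6 weeks (log2 fold change -0.62, SE 0.18, adjusted p = 0.124). Gbp4 was the single member called by DESeq2 (5.64% of all genes), by voom with quality weights (8.98%), in a fit restricted to the libraries of these 2 groups (7.54%) and without untreated replicates 6 and 8 (3.96%). The 3 comparisons share their groups, so they are not independent of each other.

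Within the groups the 10 genes varied by different amounts. The highest library exceeded the lowest by 1.12-fold to 1.82-fold with 2DG, by 1.61-fold (Irgm1) to 3.50-fold (Iigp1) in untreated spleens at 10 weeks and by 1.31-fold to 2.37-fold at 6 weeks. For 8 of the 10 genes the lowest library of all 12 was one with 2DG, and for all 10 the highest was an untreated 10-week one. The exceptions at the low end were Irgm2 and Igtp, lowest in 6-week replicate 4. Each gene's log2 CPM, centred on its mean over the 12 libraries, was set against the mean profile of the other 9. Gbp5 and Gbp7 were nearest to that mean profile, with root mean square differences of 0.10 on the log2 scale, and Iigp1 and Irgm2 were farthest, at 0.59 and 0.47. Iigp1 had the widest swing of the 10 and Irgm2 the narrowest.

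**Figure D4:**
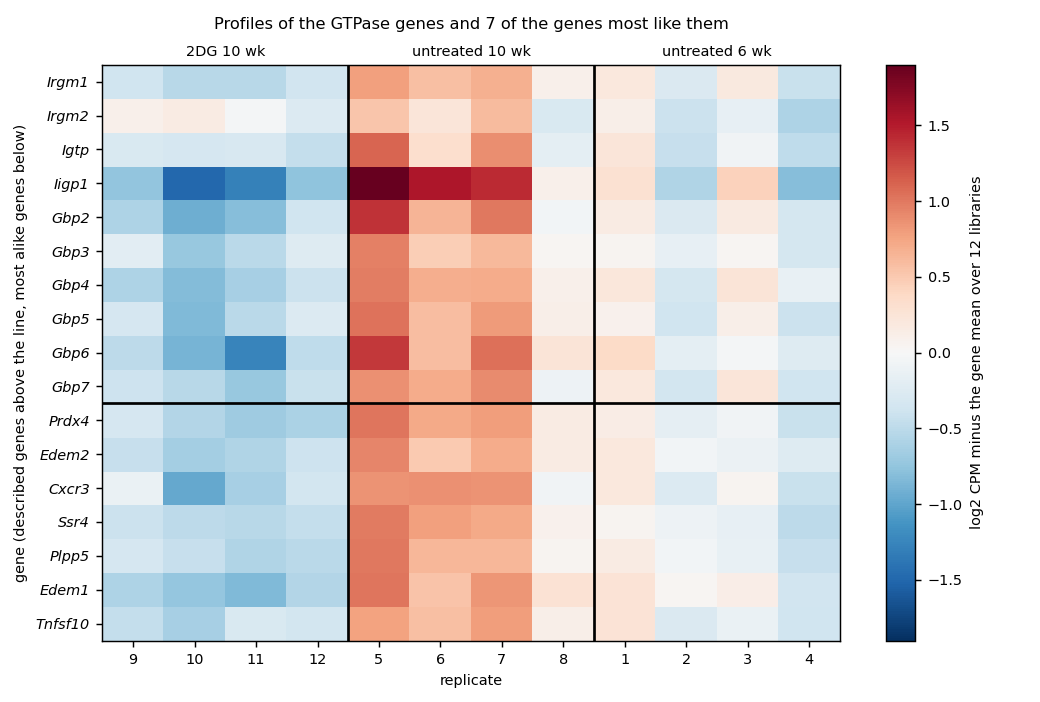
Log2 CPM minus the gene's mean over 12 libraries, for the 10 genes (above the line) and 7 of the 8 genes with the most similar profiles (below it), one column per library, 2DG first. Replicates 5, 6 and 7 are above the mean for all genes drawn, and replicate 8 is the lowest of its group for each.

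By the same distance, taken to the mean profile of the 10 genes over the 12 libraries, 11179 protein-coding genes outside the set were ranked. The nearest was Prdx4, a peroxiredoxin of the endoplasmic reticulum, with a root mean square difference of 0.12. Edem2, which acts in the disposal of misfolded proteins of the endoplasmic reticulum, stood at 0.15. The chemokine receptor gene Cxcr3 (0.15), the translocon component Ssr4 (0.15), the lipid phosphatase Plpp5 (0.16), Edem1 (0.17) and Tnfsf10, the death ligand TRAIL (0.17), were also among the 8 nearest, of which 7 are named here. Gbp2b ranked 11. These 7 were all called lower with 2DG, which their choice by likeness to the 10 genes makes no separate finding: Prdx4 stood at 31.8 ± 3.61 CPM with 2DG and 74.9 ± 17.2 CPM untreated at 10 weeks, and Edem1 at 278 ± 25.3 and 716 ± 157 CPM.

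Around the GTPases, the genes of interferon gamma signalling were split. Of 11 genes 4 fell with 2DG and none rose (5.26% and 2.16% of all genes tested), with a median log2 fold change of -0.03. Ifng, the cytokine itself, had 22, 6, 10 and 7 counts with 2DG, against 80, 27, 59 and 30 counts untreated at 10 weeks. Every library with 2DG held fewer counts than any untreated one, and the log2 fold change was -2.22 (SE 0.45, adjusted p = 0.0118). That call held in the 12 fits without 1 library and was lost in a fit of the compared groups alone (adjusted p = 0.0545). Irf1 stood at 135, 116, 144 and 146 CPM with 2DG, against 299, 256, 245 and 188 CPM untreated at 10 weeks (log2 fold change -0.87, SE 0.12, adjusted p = 0.00222). Its groups did not overlap either. Nlrc5, the activator of MHC class I genes, and Socs1, a feedback inhibitor, also fell (log2 fold changes -0.88 and -0.97, adjusted p = 0.00473 and 0.0326). The call of Socs1 was lost without any single 2DG library or untreated replicate 5, with adjusted p up to 0.106, in a fit of the compared groups alone (adjusted p = 0.0673) and without a filter (adjusted p = 0.0593). The receptor and kinase genes did not pass: Ifngr1 stood at 210 ± 6.68 CPM with 2DG and 187 ± 56.0 CPM untreated, and Jak1 at 690 ± 28.0 and 622 ± 37.8 CPM. All libraries with 2DG lay above the untreated 10-week ones for Jak1 (665 to 720 against 587 to 659 CPM, adjusted p = 0.183). The same held for Jak2 (199 to 209 against 167 to 194 CPM). Neither gene was called, and the share of all genes lying wholly above is not given here, so this separation has no baseline. Ifngr1 was called higher with 2DG when untreated replicate 6 was left out. Irf8 stood at 445 ± 22.1 CPM with 2DG and 460 ± 69.2 CPM untreated (adjusted p = 0.811).

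Among 14 further targets of interferon gamma, 11 were called lower and none higher, with a median log2 fold change of -0.70. Over all genes tested 5.26% were called lower and 2.16% higher. When untreated replicate 8 was left out, 13 were called lower, where 11.8% of all genes were called in either direction. Replicate 8 was the lowest untreated 10-week library for 13 of the 14 targets. Leaving it out favours lower calls in this list, and that share is no like baseline. Tap1 and Tap2, the peptide transporter of antigen presentation, fell with log2 fold changes of -0.72 and -0.52 (adjusted p = 0.00403 and 0.00465). Psmb9, an immunoproteasome subunit, and Cd274, the checkpoint ligand PD-L1, fell by 0.74 and 0.56 on the log2 scale (adjusted p = 0.0103 and 0.00456). For comparison, none of 20 genes mainly induced by type I interferon was called (median log2 fold change -0.21, 3 at an unadjusted p under 0.05, 2 called by DESeq2), and none of 8 tested genes of type I interferon signalling (median 0.04, 2 at an unadjusted p under 0.05, 0 called by DESeq2). Without untreated replicate 8 these lists held 0 and 1 calls, the 1 being Irf3, higher with 2DG. Without both replicates 6 and 8, where 16.7% of all genes tested were called, there were 4 lower type I targets, and Irf3 higher and Stat2 lower among the signalling genes. The smallest p in these lists belonged to Bst2, at 51.9 ± 6.59 CPM with 2DG and 80.8 ± 27.5 CPM untreated, and to Stat2, at 120 ± 4.30 and 153 ± 31.6 CPM (adjusted p = 0.124 and 0.109). Both were called lower without untreated replicate 6 (adjusted p = 0.0261 and 0.0123) and with voom (adjusted p = 0.0490 and 0.0415), and Bst2 also by DESeq2. Replicate 6 was the lowest untreated 10-week library for 18 of the 20 type I targets, among them Rsad2 and Oas3, which were picked after their values were seen. Rsad2 stood there at 15.7 CPM and in the other 3 untreated 10-week libraries at 121 to 336 CPM, and Oas3 at 7.42 CPM and 30.6 to 65.0 CPM. The difference between the interferon gamma and type I lists was not tested.

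GBP proteins act with inflammasomes, and IRG and GBP proteins need the ATG8 conjugation machinery of autophagy to reach vacuoles. Of 9 inflammasome genes 4 fell with 2DG (5.26% of all genes tested): Pycard, the adaptor ASC, Zbp1, a nucleic acid sensor, and the caspase genes Casp4 (caspase-11 in mice) and Casp1. Their log2 fold changes were -0.66, -1.43, -0.65 and -0.34 (adjusted p = 0.00748, 0.0153, 0.0157 and 0.0258). The calls of Zbp1, Casp4 and Casp1 were lost without 2DG replicate 10 or 11, and that of Casp1 also without untreated replicate 5 or with the compared groups alone (adjusted p = 0.0815). The list held 5 calls without untreated replicate 8, Il1b being the one added. None of 12 ATG8 conjugation and autophagy genes was called (median log2 fold change 0.07, 1 at an unadjusted p under 0.05, 0 called by DESeq2). Ulk1, the initiating kinase, stood at 55.1 ± 4.92 CPM with 2DG and 47.2 ± 7.49 CPM untreated (adjusted p = 0.203), and was called higher without untreated replicate 7 (adjusted p = 0.0392).

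**Figure D5:**
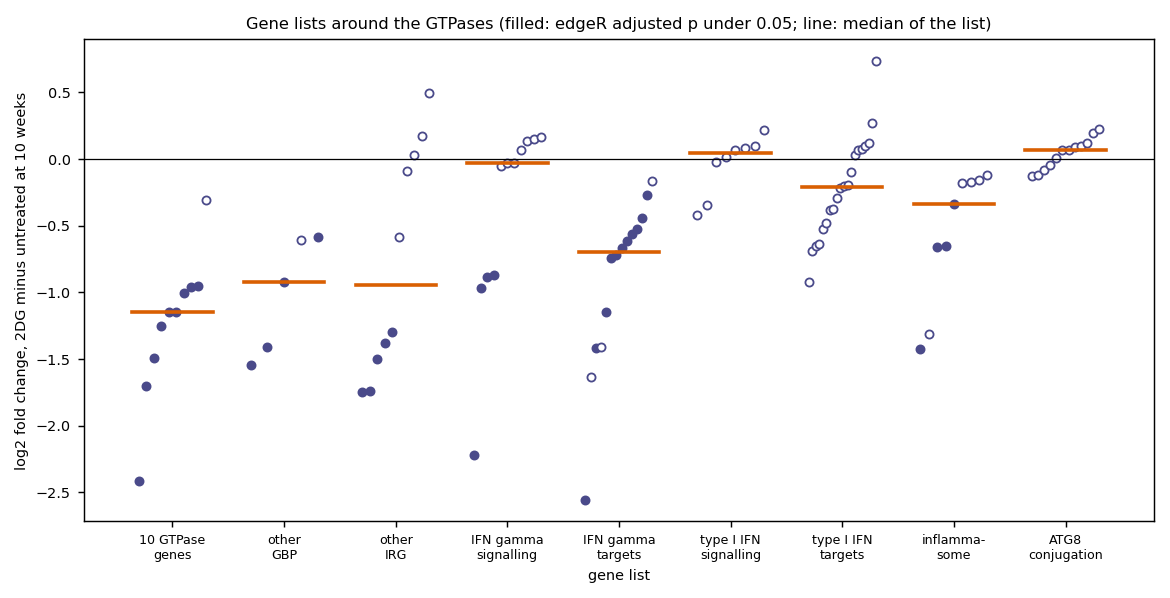
Log2 fold change of 2DG minus untreated spleens at 10 weeks for each tested gene of the 10 described and of 8 related lists; filled points have an edgeR adjusted p under 0.05 and the orange line is the median of the list. Filled points are below 0 in every list that has any, and the type I interferon and ATG8 conjugation lists have none.

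Of the marker lists for 11 spleen cell types, that of plasma cells had the most genes called lower with 2DG. Over all genes tested 5.26% were called lower and 2.16% higher. Of 6 plasma cell markers 5 were called lower with 2DG, with sums of 1355 to 2191 CPM with 2DG, 2943 to 5568 CPM untreated at 10 weeks and 1716 to 3310 CPM untreated at 6 weeks. Of 6 natural killer and type 1 innate lymphoid markers 1 was lower, with sums of 14.5 to 22.0 CPM with 2DG, 24.8 to 45.9 CPM untreated at 10 weeks and 16.9 to 23.8 CPM at 6 weeks. That list went both ways, with 2 positive and 4 negative log2 fold changes. Replicate 8, lowest of its group for the GTPase genes, was also the lowest in the natural killer sum. It was not the lowest in the plasma cell sum (3385 CPM, against a lowest of 2943 CPM) or the monocyte sum (634 CPM, against a lowest of 525 CPM). In the B cell (4434 CPM), conventional (151 CPM) and plasmacytoid dendritic cell (154 CPM) sums it was the highest of its group. Of 6 monocyte markers 2 were lower, with sums of 696 to 872, 525 to 1694 and 699 to 919 CPM in the same order of groups, and of 6 conventional dendritic cell markers 3 were higher, with sums of 167 to 199, 119 to 151 and 161 to 185 CPM. Of 9 red pulp macrophage markers 1 was lower, C1qa, with sums of 2470 to 2707, 1872 to 4271 and 1517 to 2430 CPM, and replicate 8 at 1986 CPM was again not the lowest of its group. The list went both ways, with 4 positive and 5 negative log2 fold changes and a median of -0.0033. No marker of B cells (sums of 3548 to 4092, 2393 to 4434 and 3799 to 4369 CPM) or T cells (349 to 488, 396 to 501 and 382 to 517 CPM) was called. Neutrophil, plasmacytoid dendritic cell, endothelial and stromal, and erythroid markers gave no call either. All 6 erythroid markers had positive log2 fold changes (median 1.03), with sums of 9587 to 19942, 1809 to 15659 and 5252 to 8053 CPM. For all 6, libraries with 2DG lay above the 6-week ones, and the share of all genes that did so is not given here. None of the 6 was called in that comparison. At an unadjusted p under 0.05 5 of them counted, where 16.9% of all genes tested did. Without untreated replicate 8 the calls numbered 6 lower for plasma cells, 2 lower for natural killer cells, 3 lower for monocytes, 3 lower for red pulp macrophages (C1qa, C1qb and C1qc), 4 higher for conventional and 1 higher for plasmacytoid dendritic cells. Over all genes 11.8% were called in that fit. Without untreated replicate 6 there were 0 calls for monocytes (median log2 fold change -0.21) and 0 for red pulp macrophages (median 0.37). That fit made 1829 calls over all genes. It called 6 lower for plasma cells, 1 lower for natural killer cells and 3 higher for conventional dendritic cells. Of the plasmacytoid dendritic cell markers it called 1 lower, Bst2, which is also among the type I targets. With all libraries 4 of these 5 markers had positive log2 fold changes (median 0.44), Bst2 being the exception. No marker of the 11 lists was at 0. The part of these cell types in the levels of the GTPase genes was not tested.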

How the data were processed

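A TruSeq RNA v2 kit was used to make poly(A)-selected libraries of total RNA from spleen, per the labels' protocols. Gene counts for the 12 libraries were deposited by the authors as whole numbers. The build GRCm38 and the tools RSEM 1.2.12 and Bowtie2 2.2.0 are named, without their roles, per the submitters' processing notes. How counts became whole, and to which gene a read matching several was assigned, is not given.

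Of 53715 gene identifiers 53620 matched GENCODE M21 (GRCm38), which gave symbols, coordinates and exon lengths. The 10 genes, all past the filter on low counts, were named by symbol. These members, all lists and the naming rule were chosen with earlier results of these data known. The rule took all 10 genes, other IRG and GBP genes with a count, up to 4 called genes with the smallest adjusted p per list (or the smallest p where none was called), Ifng, Irf1 and Irf8, and the 8 nearest profiles among genes averaging at least 2 in log2 CPM. One gene this rule and the interferon gamma signalling list would name is not reported here.

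edgeR 4.0.16 (R 4.3.3) was fitted to all 12 libraries with TMM, filterByExpr and robust quasi-likelihood, without covariates, which assumes 1 spread for all groups. SE was taken from the log2 fold change and F as their size over the root of F. CPM are TMM-scaled. Profiles used log2 CPM with a prior count of 2. The script was tested on simulated data. Libraries of a group, compared by chi-square over genes of 20 counts or more, gave 10.5 to 85.2 per gene, so none agreed within sampling noise. Alternatives were DESeq2 1.42.0, limma 3.58.1 voom with quality weights, other size factors and filters, a test against a fold change of 1.5, only the compared groups, and libraries left out.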

Additional observations from a re-analysis of the deposited data

Results flagged for a closer look

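In 1 of 123 gene and group combinations checked (41 genes in 3 groups of 4 libraries), a library lay far from the others of its group: Irgq, an IRG gene that was not called in any comparison, had 49.7 CPM in untreated 10-week replicate 5, against 43.2 to 44.1 CPM in the other 3. The gap to the nearest was 0.868 of the group's range, over Dixon's limit for 4 libraries. Chance flags about 1 in 20 such groups.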

How the results depend on the processing

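No paired analysis was possible because no replicate number occurs in more than 1 group. For 2DG against untreated spleens at 10 weeks the count of called genes was 9 of 10 with all libraries, 8 to 9 over the fits without 1 library and 1 (Gbp6, adjusted p = 0.0495) against a fold change of 1.5. It was 8 without a filter and with only the compared groups, Igtp being the one lost. For untreated spleens at 10 against 6 weeks the count was 0, with 8 by DESeq2, 0 to 10 over the fits without 1 library (10 without replicate 8, 0 otherwise) and 10 without both replicates 6 and 8. For 2DG at 10 weeks against untreated spleens at 6 weeks it was 0, with 1 by DESeq2, 1 by voom with quality weights, 1 with only the compared groups and 1 without both replicates 6 and 8 (each time Gbp4), and 0 in every fit without 1 library. The log2 fold changes of the 10 genes kept their sign in all alternatives run. Among the other named genes the sign turned for 9930111J21Rik1, at 0.03 with all libraries and -0.0025 with voom, -0.0249 to 0.0742 over the fits without 1 library (lowest without untreated 10-week replicate 6) and -0.0597 without both replicates 6 and 8. The cause was not tested.

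Over all genes, calls for 2DG against untreated spleens at 10 weeks numbered 1376, but 581 with only the compared groups, 83 against a fold change of 1.5, 2304 by DESeq2, 725 without untreated replicate 5, 2209 without replicate 8, 515 and 514 without 2DG replicate 10 and 11, and 3193 without both replicates 6 and 8. Untreated spleens at 10 against 6 weeks gave 1 call, but 102 without a filter, 0 with only the compared groups or against a fold change of 1.5, 18 by voom, 682 by DESeq2, 0 to 1563 without 1 library (1563 without replicate 8) and 2303 without both. Spleens with 2DG against untreated ones at 6 weeks gave 24, but 98 without a filter, 1367 with only the compared groups, 0 against a fold change of 1.5, 1665 by voom, 902 by DESeq2, 1 to 354 without 1 library and 758 without both. Depth limits most the genes with few counts per library, such as Gbp6 (13 to 76), Gm12185 (7 to 58) and Ifng (6 to 80).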
